A study of Mus musculus with 6 samples.

Results

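The inhibitory receptors outside the CD28 family were examined in activated naive CD4 T cells with and without Foxo1. They are 9 genes, Tigit, Cd226, Cd96, Cd160, Lag3, Havcr2, Vsir, Cd200 and Cd200r1, chosen by name as the rows of the deposited normalized table that carry these symbols. All 9 were found among the 13564 genes of that table. Cd226 is the activating counterpart of Tigit and Cd96, and Cd200 is the ligand of Cd200r1, so that the list also holds partners of inhibitory receptors. RNA was sequenced from 3 cultures of Foxo1TKO cells and 3 of Foxo1Ctrl cells. Foxo1TKO mice carry floxed Foxo1 alleles (Foxo1 fl/fl) and a CD4-Cre transgene, which is active from the double-positive stage in the thymus onwards, so that the T cells had lacked Foxo1 since before their export. Foxo1Ctrl mice are Foxo1 fl/fl without Cre, and both groups are on a C57BL/6 background. The study's methods list both as Foxp3-GFP mice, and the naive cells were sorted by flow cytometry. Naive CD4 T cells from lymph nodes were cultured for 4 days with the anti-CD3 antibody 145-2C11 at 0.1 µg per ml and 250000 splenocytes of CD3eKO mice, which have no T cells, as antigen presenting cells. The labels give 50000 T cells per culture and peripheral lymph nodes, whereas the study's methods give a larger number of cells and pool peripheral with mesenteric nodes. The age of the mice is not in the labels, and the study describes the donors of these cells as young adults.

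Inhibitory receptors are surface proteins that reduce signalling in a T cell when a ligand on a neighbouring cell engages them. Tigit, Cd96 and Cd226 compete for the same nectin ligands, Cd160 binds the TNF receptor family member HVEM, Lag3 binds MHC class II, Tim-3 (Havcr2) binds galectin-9 and other ligands, Vista (Vsir) binds PSGL-1 among others, and Cd200r1 binds Cd200. Several of their transcripts rise at different times after antigen receptor stimulation, and several of the receptors are known as markers of memory, follicular helper or exhausted T cells. Foxo1 is a forkhead transcription factor that naive T cells need for survival and homing.

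The deleted gene was read first. Foxo1 counted 84.7, 46.1 and 113.9 normalized counts (counts scaled to the effective size of each library by edgeR's TMM method) in the Foxo1TKO libraries and 1516, 2266 and 1584 in the Foxo1Ctrl libraries, low in every library labelled Foxo1TKO. The libraries held between 14783890 and 19675447 expected counts. The 9 T cell markers summed to 159600 to 177000 normalized counts in Foxo1TKO and 178700 to 211000 in Foxo1Ctrl, with 0 of 9 called. Of the CD8 T cell markers, Cd8a stayed at or below 27.8. Cd8b1 counted 93.9, 115.7 and 90.5 in Foxo1TKO and 143.1, 158.8 and 157.6 in Foxo1Ctrl, without overlap but not called (log2 fold change -0.61, SE 0.22, edgeR adjusted p = 0.0856). A removal of splenocytes before lysis is mentioned neither in the methods nor in the labels, and markers of other cells were therefore counted. The 10 B cell markers summed to 163 to 219 in Foxo1TKO against 556 to 634 in Foxo1Ctrl, with 4 of the 8 tested lower, and the 4 plasma cell markers to 2863 to 3741 against 4396 to 5323, with 2 of 3 lower. The 11 macrophage and monocyte markers summed to 84.7 to 113 against 62.4 to 114 with 0 of 2 tested called, Mertk and C1qa being at 0 in every library. The 9 dendritic cell markers summed to 552 to 635 against 153 to 270, where the 1 call of 3 tested was Itgax, and Cd209a was at 0. Itgax counted 347, 408.1 and 481 against 1.18, 0 and 0.961, and the separation of the sums lay in this gene. Zbtb46 and Xcr1, the others tested, overlapped between the genotypes and were not called. The 7 NK cell markers summed to 198 to 671 against 328 to 959 with 0 of 3 called, and the 7 neutrophil markers to 4.26 to 33.1 against 0 to 3.55 with none tested. Of 6 regulatory T cell markers 2 were higher (Ikzf2 and Lrrc32) and 1 was lower (Nrp1), with Foxp3 between 6.39 and 27.2 counts, and the 5 erythroid markers summed to 124 to 228 against 170 to 260 with 0 of 2 called. What part any of these cells had in the values below was not tested, and in bulk RNA fewer cells of a type and less RNA per cell cannot be told apart.

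In edgeR's quasi-likelihood test over 13691 genes, a gene was called when its Benjamini-Hochberg adjusted p was below 0.05 and its fold exceeded 1.5. By this rule 6 of the 9 members were called, 4 of them higher in Foxo1TKO (Cd160, Cd200r1, Cd200 and Tigit) and 2 lower (Vsir and Cd226), and Cd96, Lag3 and Havcr2 were not called. Of all genes tested, 23.0% were called, 11.1% higher and 11.8% lower. The libraries of the genotypes did not overlap in 5 members, 4 higher and 1 lower, against 42.7% of all genes (21.5% higher and 21.2% lower). The median log2 fold change was 0.19 over the 9 members and 0.01 over all genes tested. The members were chosen with earlier results of these data known, so these counts describe the genes and do not test them as a set.

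**Figure D1:**
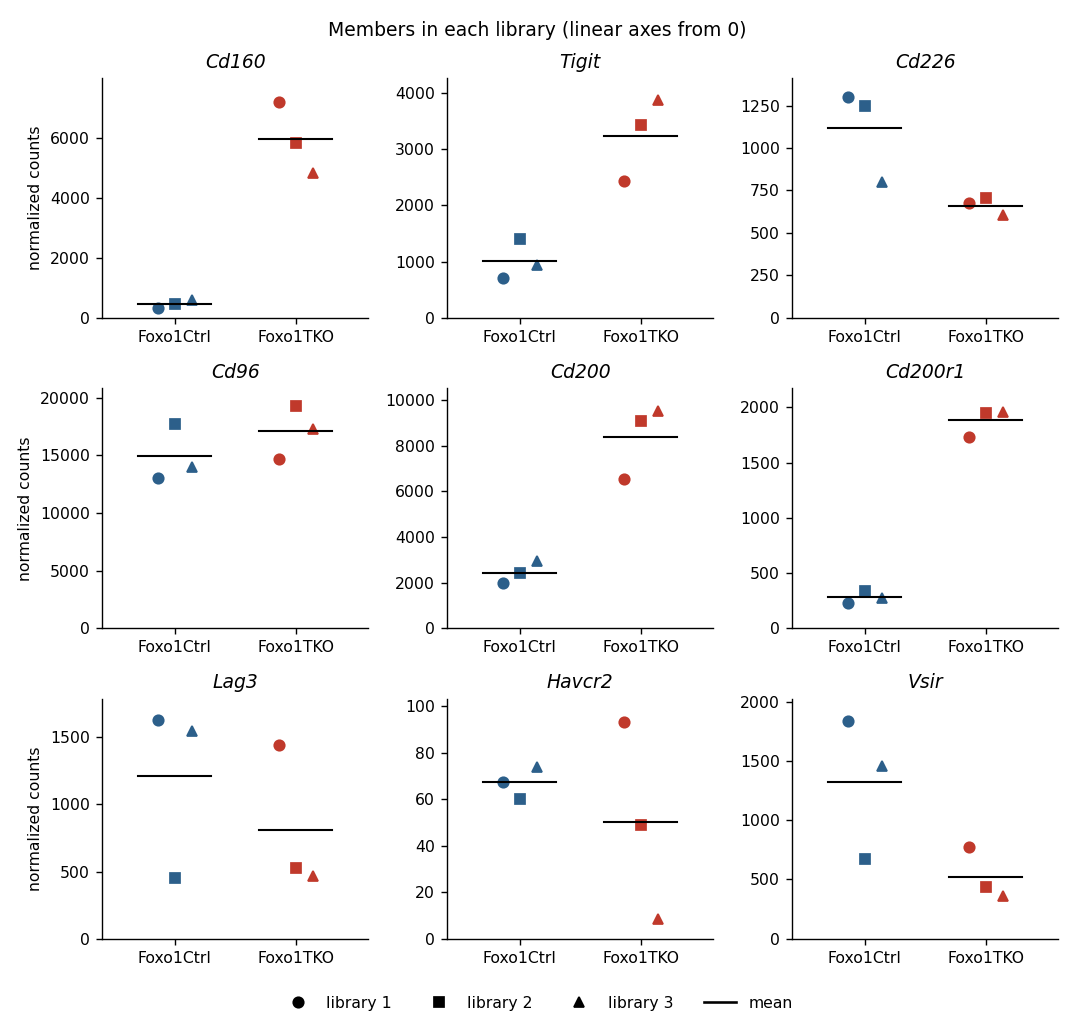
Normalized counts (vertical axes, linear from 0) of the 9 members in 3 Foxo1Ctrl (blue) and 3 Foxo1TKO (red) libraries, with the symbol giving the library number and the line the group mean. All Foxo1TKO points lie above all Foxo1Ctrl points for Cd160, Tigit, Cd200 and Cd200r1, whereas for Lag3 libraries of both genotypes fall into a high and a low set and for Vsir the genotypes overlap.

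In TPM, a level per transcript length, Cd96 was the most abundant member in both genotypes, with a median of 535 in Foxo1TKO and 477 in Foxo1Ctrl. Cd200 (median TPM 483), Cd160 (375) and Tigit (300) followed it in Foxo1TKO, each overlapping its neighbour in the order. Below them Cd200r1 stood apart at 72.0, followed by Cd226 at 44.4, Lag3 at 19.8, Vsir at 10.8 and Havcr2 at 1.26. In Foxo1Ctrl the order after Cd96 was Cd200 (median TPM 105), Tigit (86.4), Cd226 (74.5), Lag3 (57.8), Vsir (44.4) and Cd160 (24.7), each overlapping the next, and then Cd200r1 at 10.6 and Havcr2 at 1.82. Cd160 thus took place 3 of 9 in Foxo1TKO and place 7 in Foxo1Ctrl. Havcr2 was the lowest in both.

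The RefSeq promoter table held an entry for 6 of the 9 members. The 250 bases before the annotated start are shown for Cd160, Tigit and Cd200, the higher members with an entry, as the genotypes differ in a forkhead factor. They were searched on both strands for GTAAACA (reverse complement TGTTTAC), a full forkhead motif, and for its core AAACA (reverse complement TGTTT), which lies within it. Capitals mark the core. In build GRCm38.p6 the windows are chr3:96829352-96829601 for Cd160 (the upstream of its 2 listed starts), chr16:43664185-43664434 for Tigit and chr16:45409054-45409303 for Cd200, all on the minus strand.
Cd160: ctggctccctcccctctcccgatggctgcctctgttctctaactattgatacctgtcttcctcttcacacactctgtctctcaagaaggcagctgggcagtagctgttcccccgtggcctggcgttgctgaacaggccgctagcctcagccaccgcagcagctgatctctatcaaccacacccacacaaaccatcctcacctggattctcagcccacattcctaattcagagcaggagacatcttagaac
Tigit: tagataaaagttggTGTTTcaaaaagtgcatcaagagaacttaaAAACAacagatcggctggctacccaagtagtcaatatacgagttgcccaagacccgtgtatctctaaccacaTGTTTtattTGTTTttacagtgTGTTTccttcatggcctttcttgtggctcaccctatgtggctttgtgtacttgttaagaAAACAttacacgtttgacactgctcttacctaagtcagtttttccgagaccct
Cd200: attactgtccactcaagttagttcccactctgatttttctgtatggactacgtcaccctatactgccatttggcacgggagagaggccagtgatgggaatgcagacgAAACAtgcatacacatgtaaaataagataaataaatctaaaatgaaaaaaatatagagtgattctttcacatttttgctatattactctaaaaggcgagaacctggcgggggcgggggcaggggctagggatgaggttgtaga
The core occurred 6 times before Tigit, 1 time before Cd200 and 0 times before Cd160, also at its other start. Of the members with an entry that are not shown, Cd96 held it 1 time, and Havcr2 and Vsir 0 times. The full motif occurred 0 times in the windows of all 6 members with an entry. Of 32851 promoters of this length, 46.4% held the core at least once, 0.399% held it at least 6 times and 3.17% held the full motif. The cut of 6 is the count of Tigit itself, and these promoters were not matched to it in base composition. A match in letters says nothing of binding, which was not measured in these cultures. From public data on naive CD4 T cells, the study drew up a list of genes with Foxo1 bound at the promoter. That list was not used here.

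Cd160, an Ig-domain receptor that CD8 T cells, NK cells and some CD4 T cells carry and that binds HVEM, showed the largest difference of the members. It counted 7190, 5826 and 4828 normalized counts in Foxo1TKO and 329.9, 452.5 and 587.1 in Foxo1Ctrl. The lowest Foxo1TKO library thus lay far above the highest Foxo1Ctrl library. The difference was 13-fold (log2 fold change 3.70, SE 0.27, edgeR adjusted p = 0.00013), rank 154 of 13691 genes from the highest. Cd160 lies on chromosome 3 from 96798763 to 96829351, minus strand, and an exon of Pdzk1 on the opposite strand overlaps it. As the counting is not stated to use strand, reads there might not be told apart by it. The expected counts of Cd160 were whole in 6 of 6 libraries, so no split of its reads with another gene was seen. Pdzk1 was assigned 2.13 to 26.1 normalized counts by the same counting. The 7 NK cell markers summed to 198 to 671 counts in Foxo1TKO and 328 to 959 in Foxo1Ctrl, from Gzma (151 to 888) and Klrb1c (13.8 to 66.3) to Ncr1 (2.13 to 10.9) and Klra8, at 0 in every library, and their part in the values of Cd160 was not tested.

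Of the 3 other genes of the HVEM axis, 1 was called. Tnfsf14 (LIGHT), a TNF family ligand of HVEM, counted 885.1, 780.5 and 708.8 in Foxo1TKO and 54.4, 52.2 and 69.2 in Foxo1Ctrl, 13.3-fold higher (log2 fold change 3.73, SE 0.21, edgeR adjusted p = 5.09e-05). Each Foxo1TKO library lay far above each Foxo1Ctrl library. Tnfrsf14, which encodes HVEM itself, was low in all libraries (4.26 to 33.1 normalized counts) and was not called (log2 fold change -0.83, SE 0.56, adjusted p = 0.33). Btla, the other Ig-domain receptor for HVEM, counted 966.4, 1289 and 1347 against 1606, 1736 and 1605. Its groups did not overlap, but it was not called (log2 fold change -0.46, SE 0.17, adjusted p = 0.0869).

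Tigit, which carries an inhibitory motif in its tail and binds Pvr and Nectin2, was higher without Foxo1. It counted 2431, 3429 and 3868 normalized counts in Foxo1TKO against 698.8, 1393 and 945.5 in Foxo1Ctrl. The groups did not overlap, and the fold was 3.20 (log2 fold change 1.68, SE 0.28, edgeR adjusted p = 0.00483). Cd226 (DNAM-1), which binds the same ligands and activates, counted 673.9, 703 and 605.6 against 1299, 1250 and 801.4. Its groups did not overlap either, the lowest Foxo1Ctrl library being the nearest to Foxo1TKO, and the fold was 1.69 in favour of Foxo1Ctrl (log2 fold change -0.76, SE 0.21, adjusted p = 0.0357). This call was lost when a trend on GC content was removed from each library (log2 fold change -0.45, edgeR adjusted p = 0.186). That trend was fitted to deviations from the mean of all 6 libraries, so it includes any GC trend between the genotypes. The call was also lost without any of 5 of the 6 libraries, with adjusted p up to 0.127 (without Foxo1Ctrl library 1). Log2 fold changes lay between -0.95 and -0.64 over the 6 fits that leave out a library. Only without Foxo1Ctrl library 3 was the call kept. The longest annotated transcript of Cd226 has a GC content of 35.0%, against a median of 48.7% over genes tested. It is 4494 bases long, whereas the effective length that the counting assigned to Cd226 was 821.7 to 1281 bases. The GC content of the forms counted was thus not measured. Cd96, the other receptor for Pvr, counted 14670, 19330 and 17320 against 13070, 17770 and 14020. The libraries overlapped, and the 95% interval of its log2 fold change ran from -0.22 to 0.61 (estimate 0.19, SE 0.18, adjusted p = 0.482).

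Tigit lies on chromosome 16 from 43648867 to 43664146 (minus strand), Cd96 on the same chromosome from 46035657 to 46120251 (minus strand) and Cd226 on chromosome 18 from 89176967 to 89272229 (plus strand), in build GRCm38. The ratio of Tigit to Cd226 within a library, in normalized counts, was 3.61, 4.88 and 6.39 in Foxo1TKO and 0.538, 1.11 and 1.18 in Foxo1Ctrl. Every Foxo1TKO library held more counts of Tigit than of Cd226, and Foxo1Ctrl library 1 held fewer. The mean log2 ratio was 2.27 ± 0.41 (SD, n = 3) against -0.17 ± 0.63 (SD, n = 3), a difference of 2.44, with an exact two-sided permutation p of 0.1, the smallest that 3 libraries against 3 allow. As neither gene overlapped between the genotypes and they moved in opposite directions, the ratio had to separate. This p was therefore fixed by the values of the genes given above and adds no evidence to them.

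**Figure D2:**
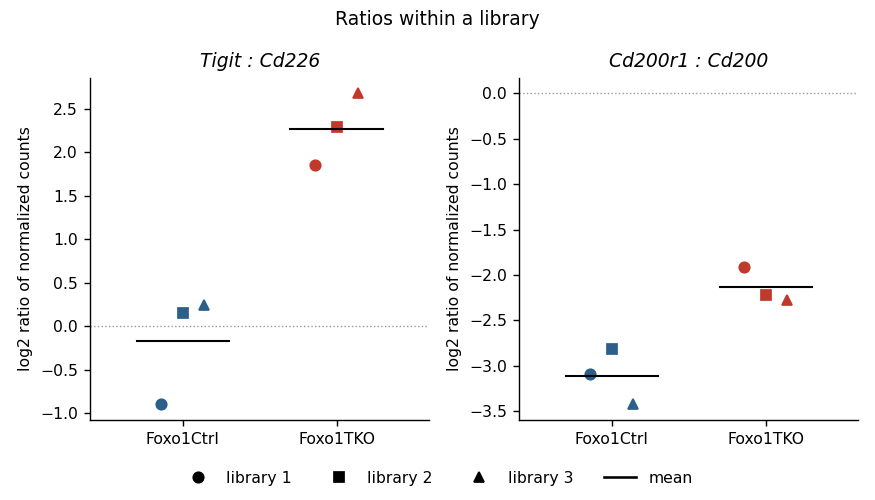
The log2 ratio of normalized counts within each library for Tigit to Cd226 and for Cd200r1 to Cd200, in 3 Foxo1Ctrl (blue) and 3 Foxo1TKO (red) libraries, with group means as lines and a dotted line at equal counts. The Foxo1TKO libraries lie above the Foxo1Ctrl libraries in both panels, by 2.44 and 0.98 between the means.

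Of the 6 other genes of the nectin axis, 3 were tested and 1 was called. Nectin2, a ligand of Tigit and Cd226, was higher (log2 fold change 3.51, SE 0.69, edgeR adjusted p = 0.00891), from 1.18, 0 and 4.80 normalized counts in Foxo1Ctrl to 50.3, 27.0 and 25.5 in Foxo1TKO. These are low counts, with a median TPM of 0.82 in Foxo1TKO. Pvr (CD155), the shared ligand, was the most counted, with 773.6, 630.8 and 587.5 against 1001, 737.1 and 1034, and was not called (log2 fold change -0.48, SE 0.20, adjusted p = 0.12). Pvrig, a further receptor for Nectin2, counted 2.37 to 16.8 and was not called. Nectin1 was at or under 3 counts in every library. The integrin that partners Cd226 (Itgal and Itgb2) was not called for either chain, with log2 fold changes of 0.29 (SE 0.19) and 0.33 (SE 0.28).

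Cd200r1, an inhibitory receptor that signals without the usual tyrosine motif and is best known on myeloid cells, counted 1733, 1953 and 1963 normalized counts in Foxo1TKO and 229.4, 341.4 and 273.8 in Foxo1Ctrl. The Foxo1TKO libraries were tightly grouped, and the fold was 6.67 (log2 fold change 2.74, SE 0.19, edgeR adjusted p = 0.000122). Its ligand Cd200, a membrane protein of activated T cells and B cells, counted 6522, 9106 and 9539 against 1962, 2411 and 2941. The groups did not overlap, and the fold was 3.44 (log2 fold change 1.78, SE 0.22, adjusted p = 0.00115). The 11 macrophage and monocyte markers summed to 84.7 to 113 counts in Foxo1TKO and 62.4 to 114 in Foxo1Ctrl. Mertk and C1qa were at 0 and Csf1r at or below 3.35, while Cd68, the most counted, was at 59.5, 64.4 and 83.0 against 43.8, 44.2 and 34.6, without overlap but not called (log2 fold change 0.74, SE 0.29, adjusted p = 0.099). The B cell markers were lower in Foxo1TKO, as given above, and the part of either cell type was not tested. Cd200r1 spans chromosome 16 from 44765736 to 44794978 (plus strand) and Cd200 from 45382135 to 45409053 (minus strand).

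The ratio of Cd200r1 to Cd200 counts was 0.266, 0.214 and 0.206 in Foxo1TKO against 0.117, 0.142 and 0.0931 in Foxo1Ctrl. Cd200r1 counted less than Cd200 in every library, and the ratio was higher in each Foxo1TKO library than in any Foxo1Ctrl library. The difference of the mean log2 ratios was 0.98, from -3.11 ± 0.30 (SD, n = 3) to -2.14 ± 0.20 (SD, n = 3), with an exact two-sided permutation p of 0.1, again the smallest possible.

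Of the paralogs of Cd200r1, Cd200r4 and Cd200r2 were higher and Cd200r3 was not called. Cd200r4, which pairs with an activating adaptor, counted 1108, 1253 and 1175 against 324, 606.7 and 411.2 (log2 fold change 1.40, SE 0.24, edgeR adjusted p = 0.00508). Cd200r2 was scarce, at 30.2, 25.2 and 19.2 against 1.18, 0 and 3.84 (log2 fold change 3.23, SE 0.63, adjusted p = 0.00879). Cd200r3 counted 12.6, 11.3 and 11.7 against 29.6, 24.9 and 23.1, without overlap, at a log2 fold change of -1.06 (SE 0.34, adjusted p = 0.0574). Reads shared among near-identical genes are split by the counting. The expected counts were whole, within 0.005, in 4 of 6 libraries for Cd200r1, 1 for Cd200r4 and 2 for Cd200r2, so that the split among these genes is uncertain. Of the adaptors that Cd200r1 recruits, Rasa1, a Ras GTPase activating protein, was lower (753.5, 1069 and 1058 against 1383, 1834 and 1385, log2 fold change -0.68, SE 0.20, adjusted p = 0.0428), a call lost without any of the 6 libraries (highest adjusted p 0.103, without Foxo1TKO library 1). Dok1 and Dok2 were not called, with SEs of 0.70 and 0.68 on the log2 scale.

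**Figure D3:**
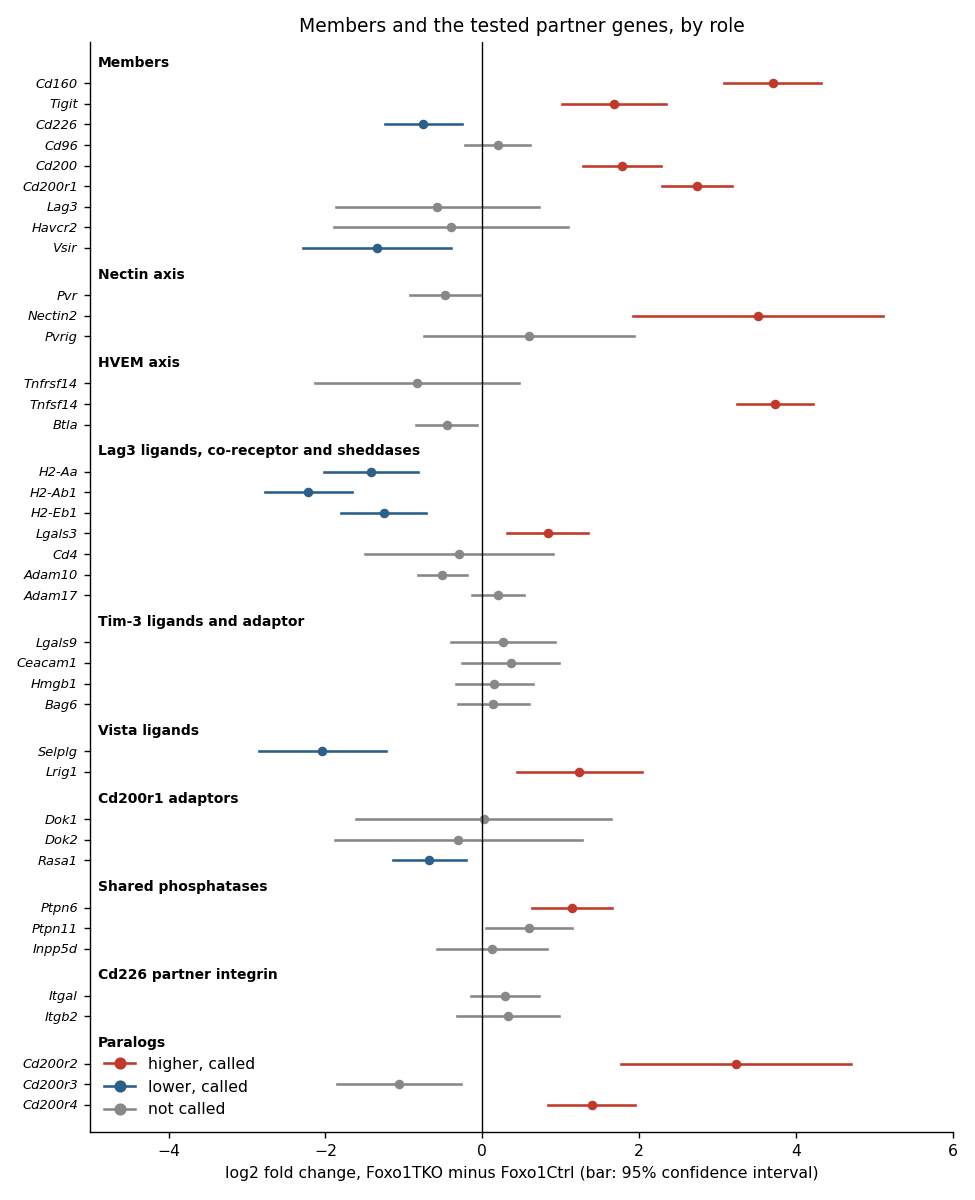
Log2 fold change (horizontal axis, Foxo1TKO minus Foxo1Ctrl) with its 95% confidence interval for the 9 members and the 30 partner genes tested, grouped by role. Called genes are red (higher) or blue (lower) and the others grey. Cd160, Tnfsf14 and Nectin2 lie farthest to the right, the MHC class II genes and Selplg to the left, and the 4 Tim-3 partners near 0.

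Cd200r1, Cd200, Tigit and Cd96 lie within 2.47 Mb of chromosome 16, and their neighbours were therefore read. In a window of 4.47 Mb, from 42648867 to 47120251, 34 genes were tested and 13 called, 10 higher and 3 lower. Without the 4 members there were 30 tested genes, 7 higher and 3 lower, and their median log2 fold change was 0.19 against 0.01 for all genes. Over all genes tested, 23.0% were called, 11.1% higher and 11.8% lower. The neighbours moved in both directions.
Besides Cd200r4 and Cd200r2, the higher ones were Phldb2 (log2 fold change 4.17, SE 0.60), a membrane-associated protein, at 36.4 against 1.11 mean counts, Naa50 (0.81, SE 0.18), an N-terminal acetyltransferase, the long non-coding RNA Gm49735 (3.55, SE 0.74) and the pseudogenes Gm5063 (3.57, SE 0.57) and Gm19142 (1.97, SE 0.46). Sidt1 (-2.72, SE 0.35), Spice1 (-1.54, SE 0.19), a centriole protein, and Slc35a5 (-0.80, SE 0.15), a nucleotide sugar carrier, were lower. Sidt1 and Spice1 stand between Tigit and Cd200r1, and Slc35a5 and Btla between Cd200r1 and Cd200. The calls of Naa50 (without Foxo1TKO library 2, adjusted p = 0.0592) and of Gm19142 (without any of 4 libraries, adjusted p up to 0.0659, without Foxo1Ctrl library 3) were lost.

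**Figure D4:**
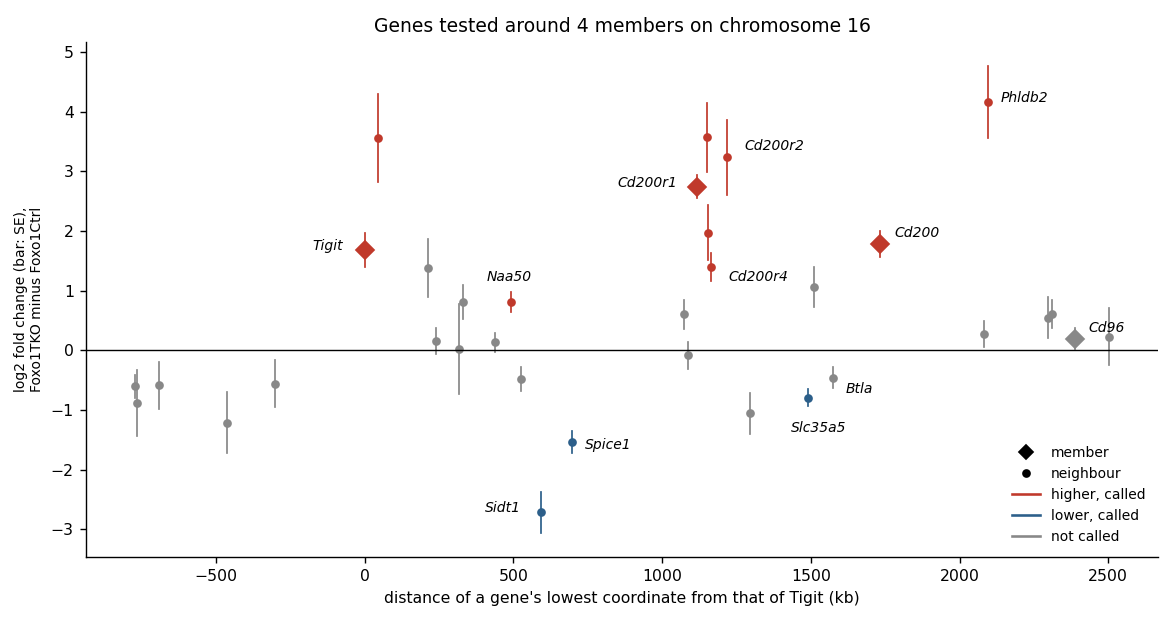
Log2 fold change (vertical axis, Foxo1TKO minus Foxo1Ctrl, bars SE) of the 34 genes tested around Tigit, against the distance in kb of each gene's lowest coordinate from that of Tigit. Diamonds are the 4 members and dots their neighbours, coloured by call. The neighbours of Cd200r1 include the higher genes Cd200r2 and Cd200r4, and Sidt1 and Spice1, both lower, stand between it and Tigit.

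Lag3, a relative of CD4 that binds MHC class II, was not called, and its libraries fell into separate sets in each genotype. It counted 1442, 522.9 and 469.3 normalized counts in Foxo1TKO and 1625, 453.6 and 1546 in Foxo1Ctrl. Foxo1TKO library 1 and Foxo1Ctrl libraries 1 and 3 were high, and the other 3 libraries, of both genotypes, were low. The log2 fold change was -0.57 (SE 0.56, 95% interval -1.87 to 0.73, edgeR adjusted p = 0.508). Cd4, its neighbour on chromosome 6 and the co-receptor for the same ligand, showed the same sets, with 7666, 3688 and 2421 against 8316, 2389 and 6258, and so did Dok1 and Dok2. These sets went with the GC content of transcripts. The Spearman rho over genes between GC content and a library's deviation from its group mean was 0.372, 0.349 and 0.252 in the high libraries and -0.254, -0.265 and -0.393 in the low ones. It is given over genes, which are not independent replicates, and without a p. The longest annotated transcript of Lag3 has a GC content of 59.9%. Among the 3 high libraries Lag3 counted 1442 in Foxo1TKO against 1625 and 1546 in Foxo1Ctrl, and among the 3 low ones 522.9 and 469.3 against 453.6. A GC trend fitted to deviations from the mean over both genotypes, not from the group mean, was also removed. The log2 fold change of Lag3 was then -0.71 (edgeR adjusted p = 0.223), and the part of GC content in the values was not otherwise tested. Lag3 lies on chromosome 6 from 124904361 to 124911705.

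The ligands and partners of Lag3 comprised 9 genes, of which 7 were tested and 4 called, beside 23.0% of all genes tested. MHC class II was lower, with H2-Ab1 at 270.7, 475.1 and 298 against 1659, 1710 and 1500 (log2 fold change -2.22, SE 0.24, edgeR adjusted p = 0.000668), H2-Aa at a log2 fold change of -1.42 (SE 0.26) and H2-Eb1 at -1.26 (SE 0.23). The B cell markers, whose cells carry class II, fell in the same libraries (4 of 8 tested, sums of 163 to 219 against 556 to 634 counts), and their part in the class II values was not tested. Lgals3 (galectin-3) was higher, with 1323, 1030 and 875.9 against 703.5, 465 and 646.7 (log2 fold change 0.83, SE 0.23, adjusted p = 0.0317), a call kept only without Foxo1TKO library 3 and lost in the other 5 fits that leave out a library (highest adjusted p 0.086, without Foxo1TKO library 2). Fgl1 and Clec4g were at 0 in every library. Of the sheddases that cut Lag3 from the surface, Adam10 had an adjusted p of 0.0286 but a fold under 1.5 (log2 fold change -0.51, SE 0.14), and Adam17 was not called (0.20, SE 0.14). The expected count of Adam17 was whole in 0 of 6 libraries, so some of its reads were shared with another gene.

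Vsir (Vista), a receptor and ligand of quiescent T cells and myeloid cells, was lower by a narrow margin. It counted 771.1, 435.1 and 360.8 in Foxo1TKO and 1836, 675.9 and 1461 in Foxo1Ctrl, with Foxo1TKO library 1 above Foxo1Ctrl library 2, so that the groups overlapped. The log2 fold change was -1.34 (SE 0.41, edgeR adjusted p = 0.0482). Within the libraries that were high for Lag3 it counted 771.1 against 1836 and 1461, and within the low ones 435.1 and 360.8 against 675.9. Per transcript length the low libraries did not differ in that direction, with a TPM of 10.8 and 8.29 against 8.59 and a deposited signal of 440 and 358.4 against 411.6. With the same GC correction as for Lag3 the log2 fold change was -1.41 (edgeR adjusted p = 0.0121). The call was lost without Foxo1Ctrl library 1 (-1.03, adjusted p = 0.156), Foxo1Ctrl library 3 (-1.26, 0.122), Foxo1TKO library 2 (-1.21, 0.164) or Foxo1TKO library 3 (-1.13, 0.133). It was also lost with an offset for effective length (-1.28, adjusted p = 0.156), the mean transcript length that the counting assigns, which was 4500 bases in Foxo1Ctrl library 2 and 2240 to 2697 in the others. Vsir lies on chromosome 10 from 60346851 to 60372684 (plus strand), inside Cdh23 on the other strand, without an overlap of exons. Cdh23 counted 26.0, 32.2 and 26.6 in Foxo1TKO against 62.7, 56.7 and 60.5 in Foxo1Ctrl. It was called lower as well (log2 fold change -1.06, SE 0.28, edgeR adjusted p = 0.0283), and any link to the values of Vsir was not tested.

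**Figure D5:**
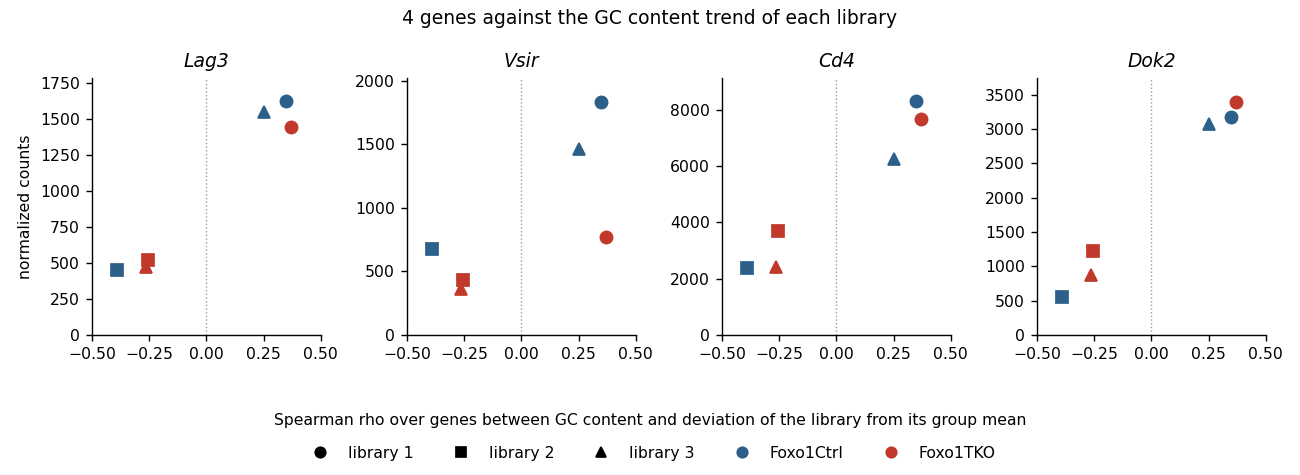
Normalized counts (vertical axes, from 0) of Lag3, Vsir, Cd4 and Dok2 in the 6 libraries against the Spearman rho over genes between GC content and the deviation of the library from its group mean. Colours give the genotype and symbols the library number. The 3 libraries with a positive rho are the high ones for Lag3, Cd4 and Dok2, and Foxo1TKO library 1 lies below both Foxo1Ctrl libraries beside it for Vsir.

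Of the ligands of Vista, Selplg (PSGL-1), an adhesion molecule of leukocytes that binds selectins, was lower in Foxo1TKO, with 4545, 3055 and 2491 against 18590, 7869 and 15050. The groups did not overlap (log2 fold change -2.04, SE 0.35, edgeR adjusted p = 0.00511). Lrig1 was higher, at 100.6, 133.1 and 123.5 against 44.9, 31.8 and 73.0 (log2 fold change 1.23, SE 0.35, adjusted p = 0.0355), a call lost without any of 4 libraries (Foxo1Ctrl 1 and 2 and Foxo1TKO 2 and 3, highest adjusted p 0.114, without Foxo1TKO library 2). Igsf11 was at 0 in every library.

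Havcr2 (Tim-3), a receptor of terminally differentiated T cells, was scarce, with 93.0, 48.7 and 8.51 normalized counts in Foxo1TKO and 67.4, 60.1 and 74.0 in Foxo1Ctrl. Foxo1TKO library 1 was the highest of all and Foxo1TKO library 3 the lowest. The log2 fold change was -0.40 (SE 0.65, 95% interval -1.90 to 1.09, edgeR adjusted p = 0.697), and without Foxo1TKO library 3 it was 0.08. Of its 4 partners 0 were called. They were the ligands Lgals9 (galectin-9, log2 fold change 0.26, SE 0.29), Ceacam1 (0.36, SE 0.27) and Hmgb1 (0.15, SE 0.21, the most counted of all partners) and the adaptor Bag6 (0.14, SE 0.19). The expected count of Hmgb1 was whole in 0 of 6 libraries, so some of its reads were shared with another gene. The related genes Havcr1 and Timd4 were at or under 3 counts in every library. Havcr2 lies on chromosome 11 from 46454935 to 46481255.

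Several of these receptors recruit the same phosphatases. Ptpn6 (SHP-1) was higher, with 8047, 6383 and 5689 normalized counts in Foxo1TKO against 3222, 2253 and 3665 in Foxo1Ctrl (log2 fold change 1.14, SE 0.22, edgeR adjusted p = 0.00858). The expected count of Ptpn6 was whole in 0 of 6 libraries, so some of its reads were shared with another gene. Ptpn11 (SHP-2) was not called (0.60, SE 0.24, adjusted p = 0.109), nor was Inpp5d (SHIP-1, 0.12, SE 0.30, adjusted p = 0.807). In all, 30 of 39 partner genes were tested and 12 called, 7 higher and 5 lower, beside 23.0% of all genes, and 6 were at or under 3 counts everywhere.

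The genes whose pattern over the 6 libraries was most like that of each member are given as a description, by Pearson's r of log2 normalized counts over 9204 genes with a mean of at least 100. The libraries share the genotype difference, so a high r is common for a gene that differs between genotypes. For Cd160 they were Penk, Endod1 and Gpd2 (r of 0.999 each), and for Tigit Dkc1, Nme1 and Mrpl16 (0.999 each). For Cd200r1 they were Ccdc50 (1.000), Srgap3 and Eef1g (0.999 each), and for Cd200 Lmo4, Hsph1 (0.998 each) and Pycrl (0.997). The lower members were most like Casp4, Gxylt1 (0.988 each) and Stag2 (0.983) for Cd226, and Ncf1 (0.999), Tmem63a (0.998) and Necap2 (0.997) for Vsir. Of these, Gxylt1 (edgeR adjusted p = 0.165) and all genes given for Vsir (adjusted p of 0.0643 to 0.0677) were not called. Lag3 was most like Kctd10 (0.995), Slc35c1 and Atg4d (0.994 each), none of them called. Cd96 was most like Smu1 (0.990), Med19 (0.989) and Cdk7 (0.988), and Havcr2 most like Cep83os (0.993), Rpap1 (0.988) and Chtf8 (0.980).

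For comparison, of the 12 genes of the CD28 family and its ligands, 10 were tested and 7 called, beside 23.0% of all genes tested. Pdcd1 (log2 fold change 4.57), Pdcd1lg2 (2.23) and Cd86 (1.03) were higher, and Ctla4 (-4.18), Cd80 (-1.83), Icos (-1.64) and Cd28 (-1.43) were lower. The calls of Cd80 and Cd86 were lost without any of 5 and of 3 libraries, with adjusted p up to 0.0892 (without Foxo1TKO library 3) and 0.0636 (without Foxo1TKO library 2). No test was made of a difference between the families.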

How the data were processed

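Samples were assigned to Foxo1TKO or Foxo1Ctrl from their titles (n = 3 each). The authors aligned reads with STAR 2.7.6a to Ensembl GRCm38, kept multiply mapped reads with a count adjustment, and counted genes with RSEM 1.3.1. The deposited expected counts per gene carry no normalization and were here rounded to integers. The deposited TPM and effective lengths per gene and library were made by the authors with RSEM. TPM was used for the order of levels, and keeps no depth. The authors' table of normalized signal divides the rounded counts by a DESeq2 size factor and a relative effective length, and was used to choose the genes and for an alternative. Whether the counting used strand is not given in the sources used here.

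The 13691 genes reaching 10 counts in 3 or more libraries were tested with edgeR 4.0.16 in R 4.3.3 (TMM, glmQLFit, glmQLFTest, prior count 1) on genotype, with Benjamini-Hochberg adjustment over all of them. SEs are the log2 fold change over the square root of the F statistic. Ratios within a library were tested by exact permutation (scipy 1.17.1). The labels do not say whether libraries came from separate mice, so p-values measure the spread between these samples only. The edgeR test was tried on simulated counts with 200 changed genes. It recovered 30% of those with an absolute log2 fold change of 1 and 91% of those with 2, and 4.72% of its calls were false. A gene not called may therefore still differ. Far fewer genes were changed in the simulation than the 3144 called here, so its rates need not hold for these data. Alternatives were DESeq2 1.42.0, limma-voom (limma 3.58.1), other scalings and filters, effective length, the deposited signal with limma on log2(value + 1) or log2(value + 10), a replicate block and each library left out. A GC correction was added after the data were seen. It used the GC content of each gene's longest annotated transcript. Its trend was fitted to each library's deviation from the mean over both genotypes, so a GC trend between the genotypes was removed too. Positions are from GENCODE M21 and promoters from RefSeq (GRCm38.p6).

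The members, partner genes, marker lists and neighbours were chosen with earlier results of these data known. The genes named are all members, partners that were called, most counted or at or under 3 counts, called neighbours and CD28 family genes, and the 3 genes most like each member. Genes named beside these were chosen after their values were seen. Plots were made with matplotlib 3.10.9.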

Additional observations from a re-analysis of the deposited data

How the results depend on the processing

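Cd160, Tigit, Cd200 and Cd200r1 kept their direction and call under all 12 alternative settings (log2 fold changes of 3.69 to 3.76, 1.58 to 1.72, 1.78 to 1.90 and 2.73 to 2.84) and without any single library (3.51 to 3.92, 1.46 to 1.99, 1.64 to 1.94 and 2.60 to 2.91). Cd226 was no longer called with a GC offset (-0.45) or a GC offset and replicate block (-0.44), and gave -0.95 to -0.64 without a library. Vsir was no longer called with limma-voom (-1.29), an effective length offset (-1.28) or the deposited signal with a pseudocount of 1 (-1.10) or 10 (-1.08), and ranged from -1.74 to -1.03 without a library. Havcr2 ranged from -1.19 to 0.076 without a library, the last without Foxo1TKO library 3. The cause was not tested. Members called numbered 5 or 6 (of 9) under other settings and 4 to 5 without a library. Partners called numbered 12 or 13, and 9 to 11 without a library. All genes called numbered 2992 to 3694, and 1854 (without Foxo1TKO library 2) to 3321 without a library, with 2031 without Foxo1Ctrl library 1.

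Libraries of the same number did not all deviate together (r of 0.433, 0.198 and -0.11), so a pairing by number was not shown by these values and remains unknown, and not every library correlated best with its own number. With the replicate block 3318 genes, 12 partners and the same 6 members were called, against 3144 genes without it (Cd160 3.71, Cd200r1 2.75, Cd200 1.78, Tigit 1.71, Cd226 -0.73, Vsir -1.30). With 3 libraries a group, the interval of Havcr2 spans changes in both directions.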
